A study of Mus musculus with 9 samples.

Results

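The mevalonate pathway was followed in the liver through the genes for the enzymes that carry acetyl-CoA to squalene: Acat2, Acat3, Hmgcs1, Mvk, Pmvk, Mvd, Idi1, Fdps and Fdft1. These 9 genes, of 19329 gene symbols in the table, were taken by their enzymatic step, and they do not cover every step of the route. All livers were of the inbred mouse strain C57BL/6J. In the HSD group, 4 mice were given a high-sucrose diet (HSD) for 3 weeks starting at 8 weeks of age, and in the Chow group 5 mice stayed on standard chow, so that all mice were 11 weeks old when liver RNA was sequenced. No mouse carried an allele or received an agent other than the diet according to the labels, each library is labelled as its own mouse, and their sex was not stated in the labels or methods.

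The pathway starts in the cytosol, where a thiolase joins acetyl-CoA units to acetoacetyl-CoA and HMG-CoA synthase adds another, and HMG-CoA is then reduced to mevalonate, a step outside these 9 genes. Mevalonate is phosphorylated and decarboxylated to isopentenyl diphosphate, the unit from which farnesyl diphosphate and then squalene are built. Squalene feeds cholesterol synthesis, while farnesyl diphosphate also serves protein prenylation, dolichol and coenzyme Q. In the liver the genes of this route are known targets of the transcription factor SREBP-2, which cells release from the endoplasmic reticulum when sterols run low.

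Libraries held 14040723 to 24825322 estimated counts on HSD, and 12769668 to 25913869 on Chow. All 9 genes passed the filter on low counts, as did 12091 genes in all. Library labels fell into a pair of number series, the first with 2 HSD and 4 Chow livers and the second with 2 HSD and 1 Chow liver; what they mark is not stated, so results are also given within each. Chow 1 stood apart by acute-phase genes, with 8306 CPM (counts scaled to library size by TMM, the trimmed mean of M values) of Saa1, against 8.64 to 15.7 CPM in HSD livers and 12.1 to 107.4 CPM in the other Chow livers. Hepatocyte markers, a list of 8 genes, summed to 104232 to 134753 CPM on HSD and 72751 to 135612 CPM on Chow, and none of them was at 0; edgeR called 1 of 8, Serpina1a, lower (log2 fold change -0.38, adjusted p = 0.0475). Kupffer cell and macrophage markers, also 8 genes, summed to 101 to 206 CPM on HSD and 161 to 369 CPM on Chow, with 0 of 8 called by edgeR or DESeq2 and 3 lower at an unadjusted p under 0.05. Red blood cell markers summed to 115 to 158 CPM on HSD and 182 to 459 CPM on Chow. Of 5 tested, edgeR called 1 lower, Alas2, at 68.5 ± 7.98 CPM on HSD and 151.2 ± 13.2 CPM on Chow (SD, n = 4 and 5). Its log2 fold change was -1.14 (edgeR adjusted p = 0.00016), and it made up much of the mean sums, 136.2 CPM on HSD and 246.9 CPM on Chow. The globin genes Hba-a1, Hba-a2, Hbb-bs and Hbb-bt each overlapped between the diets. Their log2 fold changes were -0.60 to -0.23 (edgeR adjusted p = 0.541 to 0.862). Stellate cell markers summed to 194 to 241 CPM on HSD and 153 to 199 CPM on Chow, with 0 of 6 called by edgeR, 3 higher at an unadjusted p under 0.05, and Lrat and Reln called higher by DESeq2. The part of these marker lists in the results was not tested. In whole liver, fewer cells of a type and less RNA per cell cannot be told apart.

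Between the diets, Acat2 was higher and Acat3 lower on HSD, and the other 7 genes did not pass the test. The test was edgeR's quasi-likelihood test with Benjamini-Hochberg adjustment over all 12091 genes, and a gene was called at an adjusted p under 0.05. Of all genes tested, 3.44% were called higher and 3.23% lower on HSD, or 6.67% in either direction. The 1 higher and 1 lower call among 9 genes lie above that share. Yet 9 genes are few, and both calls fall on a pair of genes with shared sequence. DESeq2 called the same 2 members, with 5% of all genes higher and 5.25% lower. Unadjusted p values were under 0.05 for 3 members higher (Acat2, Pmvk and Mvd) and 2 lower (Acat3 and Mvk), where 12.1% of all genes were higher and 11.6% lower at that level. The median log2 fold change of the members was 0.03, against 0.00 over all genes tested. Levels did not overlap between the diets for 2 of the 9 members, Acat2 and Acat3, as for 11.3% of all genes. The 9 genes together summed to 1050 to 1536 CPM on HSD, and 1319 to 1527 CPM on Chow.

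**Figure D1:**
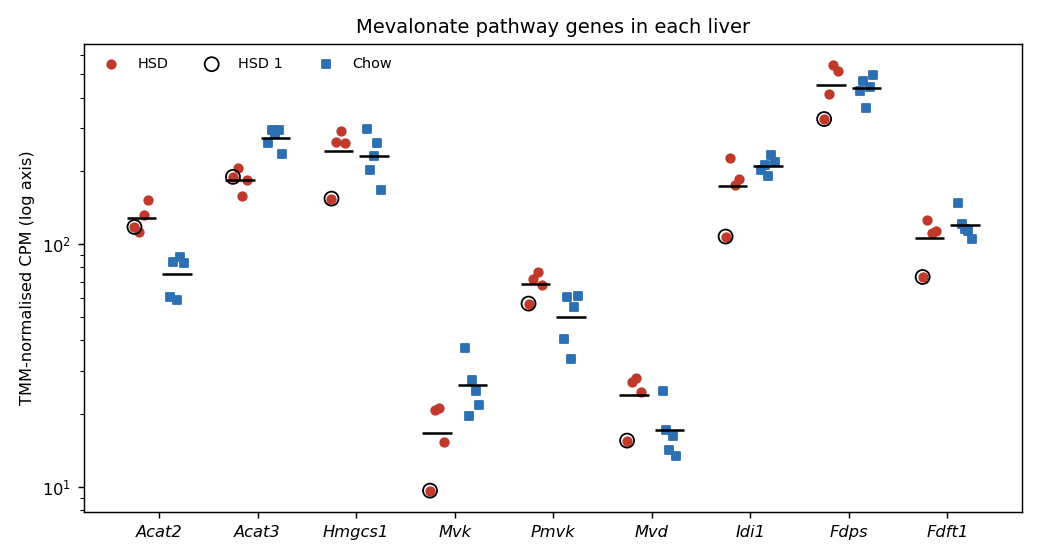
TMM-normalised CPM on a log axis for the 9 genes in pathway order, 1 point per liver, red circles for 4 HSD livers and blue squares for 5 Chow livers, with a bar at each mean and a ring around HSD 1. The diets separate fully for Acat2 and Acat3, and HSD 1 is the lowest HSD liver for the other 7 genes.

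Acat2 encodes the cytosolic thiolase that makes acetoacetyl-CoA, the entry to the pathway, and Acat3 is its close mouse relative. Both lie on the minus strand of chromosome 17 (GRCm38), Acat2 at chr17:12942890-12960747 and Acat3 at chr17:12923813-12940600, with 2289 bases between them. Their coding sequences are each 1191 bases long and differ at 27 of them, an identity of 97.7%. The first 90 coding bases hold 11 of these differences, and they are shown because here reads can tell the genes apart, with capitals at the bases that differ (GENCODE annotation).
Acat2: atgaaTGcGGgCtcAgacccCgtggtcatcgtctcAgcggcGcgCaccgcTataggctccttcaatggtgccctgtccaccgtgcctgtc
Acat3: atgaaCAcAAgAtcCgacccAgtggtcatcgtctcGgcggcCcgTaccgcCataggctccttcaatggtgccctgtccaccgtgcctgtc
From coding base 52 to 408 the copies are identical for 357 bases. Of all stretches of 31 bases in Acat2 transcripts, 43.7% also occur in Acat3, and 46.9% of those in Acat3 occur in Acat2. The counting tool, kallisto, divides reads that fit several transcripts among them, so part of each gene's count rests on that division, and the level of either gene alone is uncertain.

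Acat2 stood at 117.5, 112.4, 131.3 and 151.3 CPM in the HSD livers, against 60.3, 84.5, 58.8, 88.2 and 83.4 CPM in the Chow livers. Every HSD liver was above every Chow liver. The means were 128.1 ± 17.4 CPM (SD, n = 4) on HSD and 75.0 ± 14.2 CPM (SD, n = 5) on Chow, a log2 fold change of 0.77 (SE 0.14, edgeR adjusted p = 0.00926). Acat3 stood at 189.1, 204.8, 157.1 and 182.9 CPM in the HSD livers, against 261.5, 293.9, 284.2, 293.9 and 235.4 CPM in the Chow livers. Here every HSD liver was below every Chow liver. The means were 183.5 ± 19.9 CPM (SD, n = 4) on HSD and 273.8 ± 25.2 CPM (SD, n = 5) on Chow, with a log2 fold change of -0.58 (SE 0.11, edgeR adjusted p = 0.00833). On average the HSD livers held 53.1 CPM more of Acat2, and Acat3 fell by 90.3 CPM.

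Taken as 1 row, Acat2 and Acat3 did not differ past the test. Their sum was 306.5, 317.2, 288.3 and 334.2 CPM in the HSD livers, and 321.8, 378.4, 343.0, 382.0 and 318.8 CPM in the Chow livers, which overlap. The log2 fold change of the sum was -0.16 (SE 0.10, 95% interval -0.39 to 0.06, edgeR adjusted p = 0.329). The share of Acat2 in the sum was 38.3%, 35.4%, 45.5% and 45.3% in the HSD livers, and 18.8%, 22.3%, 17.1%, 23.1% and 26.1% in the Chow livers. It averaged 41.1% ± 5.06 (SD, n = 4) on HSD and 21.5% ± 3.58 (SD, n = 5) on Chow, a difference of 19.6 percentage points (exact permutation test, two-sided, p = 0.0159, the smallest that 126 splits allow). Every HSD liver was above every Chow liver for Acat2 and below every Chow liver for Acat3, so the share had to separate. Its p value was therefore bound to be the smallest possible and adds no evidence beyond the calls of Acat2 and Acat3. In TPM, a unit that corrects for transcript length, the share was 40.4% on HSD and 20.8% on Chow.

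**Figure D2:**
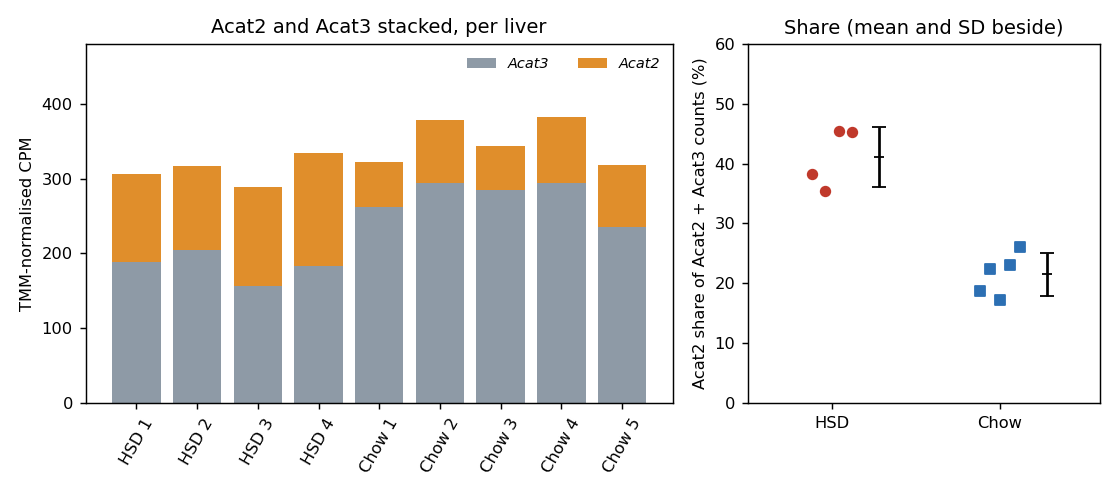
Left, Acat3 (grey) and Acat2 (orange) stacked in TMM-normalised CPM for each liver, HSD livers first; right, the share of Acat2 in the summed counts per liver in percent, with mean and SD beside the points. The stacks reach 288.3 to 334.2 CPM on HSD and 318.8 to 382.0 CPM on Chow, while the share is 35.4% or more in each HSD liver and 26.1% or less in each Chow liver.

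Both calls kept their direction within each label series. Acat2 gave a log2 fold change of 0.65 (edgeR adjusted p = 0.192) within the first series and 0.75 within the second. Acat3 gave -0.53 (edgeR adjusted p = 0.162) and -0.48 in the same order. Over all genes, 0.121% were called higher and 0.154% lower within the first series, and 2.72% and 3.1% within the second, where the lone Chow liver is assumed to vary like the HSD livers. With limma on log2(TPM + 1), Acat3 no longer passed, at -0.41 (adjusted p = 0.0635); on that scale 4.51% of genes were called higher and 0.958% lower, and the median of all genes lay at 0.14. Acat3 also overlaps the 3′ end of Tcp1, a chaperonin subunit gene on the other strand, over 1255 bases. Of the stretches of 31 bases, 22.7% in Acat3 and 13.2% in Acat2 occur in Tcp1 too. Tcp1 itself was at 107.7 ± 8.82 CPM on HSD and 104.5 ± 9.48 CPM on Chow (SD, n = 4 and 5), with a log2 fold change of 0.04 (edgeR adjusted p = 0.821).

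Hmgcs1 encodes cytosolic HMG-CoA synthase, the enzyme of the next step. Its level was 153.7, 264.3, 291.2 and 260.8 CPM in the HSD livers, against 296.7, 202.6, 230.9, 260.6 and 166.7 CPM in the Chow livers. HSD 1 was the lowest of all 9 livers, and the other HSD livers lay in the upper part of the Chow range. The log2 fold change was 0.07 (SE 0.20, 95% interval -0.39 to 0.53, edgeR adjusted p = 0.875). Within the first label series it was -0.25 (edgeR adjusted p = 0.681) and within the second 0.72, a value that rests on the single Chow liver there, Chow 5, which had the lowest Hmgcs1 of the Chow livers; whether the series differ was not tested.

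Mvk, Pmvk and Mvd encode mevalonate kinase, phosphomevalonate kinase and mevalonate diphosphate decarboxylase, which act in turn. Mvk was at 9.62, 20.6, 21.0 and 15.3 CPM in the HSD livers, against 37.3, 19.6, 27.5, 24.7 and 21.7 CPM in the Chow livers. Only Chow 2 fell within the HSD range. Its log2 fold change of -0.66 (SE 0.23, 95% interval -1.20 to -0.11, unadjusted p = 0.0148, edgeR adjusted p = 0.113) did not pass the test over all genes.

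Pmvk was at 56.8, 71.6, 76.3 and 68.0 CPM in the HSD livers, against 40.5, 60.4, 33.7, 54.9 and 61.3 CPM in the Chow livers. The diets overlapped through HSD 1 in CPM and did not overlap in TPM, where Pmvk was at 77.8 to 104.1 on HSD and 39.8 to 75.5 on Chow. The share of all genes that do not overlap in TPM was not counted. With limma on log2(TPM + 1), Pmvk gave 0.635 (adjusted p = 0.0838), where the median of all genes lay at 0.14. In edgeR's main fit the log2 fold change of Pmvk was 0.44 (SE 0.17, edgeR adjusted p = 0.136). With a covariate for the balance of the clock genes Arntl and Dbp it was 0.68 (edgeR adjusted p = 0.0016), in a fit that called 3.71% of all genes higher.

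Mvd was at 15.5, 27.0, 28.1 and 24.6 CPM in the HSD livers, against 24.8, 17.2, 14.1, 16.1 and 13.4 CPM in the Chow livers. The overlap came from 1 liver on each side, HSD 1 being low and Chow 1, the liver high in Saa1, being high. Chow 1 was also the highest Chow liver for Hmgcs1, Mvk and Fdft1. The log2 fold change was 0.47 (SE 0.20, edgeR adjusted p = 0.175). It was 0.63 (edgeR adjusted p = 0.0412) without Chow 1, where 3.96% of all genes were called higher, and 0.63 (edgeR adjusted p = 0.0853) without HSD 1. Within the first label series it was 0.24 (edgeR adjusted p = 0.729) and within the second 0.96, which rests on the single Chow liver there, Chow 5, the lowest of all 9 livers for Mvd.

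Idi1 encodes the isomerase that turns isopentenyl diphosphate into dimethylallyl diphosphate. It was at 107.3, 226.3, 174.7 and 184.7 CPM in the HSD livers, against 201.2, 211.1, 190.1, 231.6 and 217.1 CPM in the Chow livers. HSD 2 lay inside the Chow range and the other HSD livers below it, with a log2 fold change of -0.28 (SE 0.17, edgeR adjusted p = 0.348). The log2 fold change was -0.11 without HSD 1 and -0.43 without HSD 2 (edgeR adjusted p = 0.157).

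Fdps encodes farnesyl diphosphate synthase, the branch point to the isoprenoids. It was at 327.2, 415.7, 545.2 and 516.4 CPM in the HSD livers, against 427.2, 469.7, 364.7, 443.4 and 498.2 CPM in the Chow livers. HSD livers took both the lowest and the highest values, with the Chow range between them. The log2 fold change was 0.03 (SE 0.15, 95% interval -0.32 to 0.39, edgeR adjusted p = 0.919).

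Fdft1 encodes squalene synthase, the first enzyme committed to sterols. It was at 73.1, 126.0, 111.0 and 113.2 CPM in the HSD livers, against 146.9, 121.0, 114.7, 113.6 and 105.0 CPM in the Chow livers. Apart from HSD 1, the HSD livers lay within the Chow range. The log2 fold change was -0.18 (SE 0.15, 95% interval -0.54 to 0.17, edgeR adjusted p = 0.495), and 0.06 with limma on log2(TPM + 1), a scale on which the median of all genes was 0.14, so that Fdft1 lay below the median gene on both. Of its stretches of 31 bases, 17.6% also occur in Ctsb, which overlaps it, and 31.9% in any other gene. For Fdps 24.6% occur in the overlapping Gm43738. Idi1 shares 27.1% and Hmgcs1 13.1% of such stretches with any other gene, but 0.4% and 2.2% with genes in the count table. Counts of Fdft1 and Fdps are therefore less certain than those of Pmvk and Mvd, which share 0 such stretches with another gene.

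**Figure D3:**
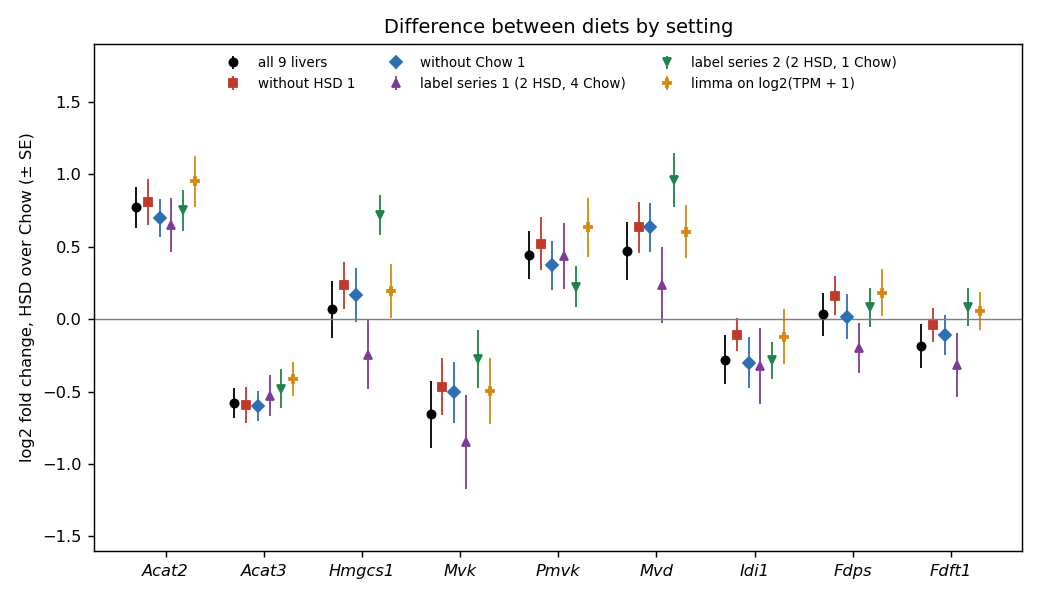
Log2 fold change of HSD over Chow with its SE for each gene under 6 settings, which are all 9 livers, without HSD 1, without Chow 1, each label series alone, and limma on log2(TPM + 1). Acat2 stays above 0 and Acat3 below 0 in all 6, while Hmgcs1 spans -0.25 to 0.72 and Mvd 0.24 to 0.96.

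The genes differed widely in level per transcript length. Fdps led in both diets, at a mean of 569 TPM on HSD (419 to 696 over 4 livers) and 496 TPM on Chow (401 to 570 over 5 livers). On HSD the order of mean TPM then ran Acat3 (124), Hmgcs1 (105), Pmvk (91.9), Acat2 (84.2), Idi1 (82.2), Fdft1 (64.0), Mvd (20.1) and Mvk (17.4). On Chow it ran Acat3 (167), Hmgcs1 (90.6), Idi1 (87.2), Pmvk (60.8), Fdft1 (60.6), Acat2 (44.0), Mvk (24.4) and Mvd (12.7). Between neighbours in the HSD order, ranges did not overlap for Fdps and Acat3 or for Fdft1 and Mvd, and all other neighbours overlapped. In the Chow order, ranges did not overlap for Fdps and Acat3, Acat3 and Hmgcs1, or Mvk and Mvd. Mvk and Mvd thus stood last in both diets, in opposite order.

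**Figure D4:**
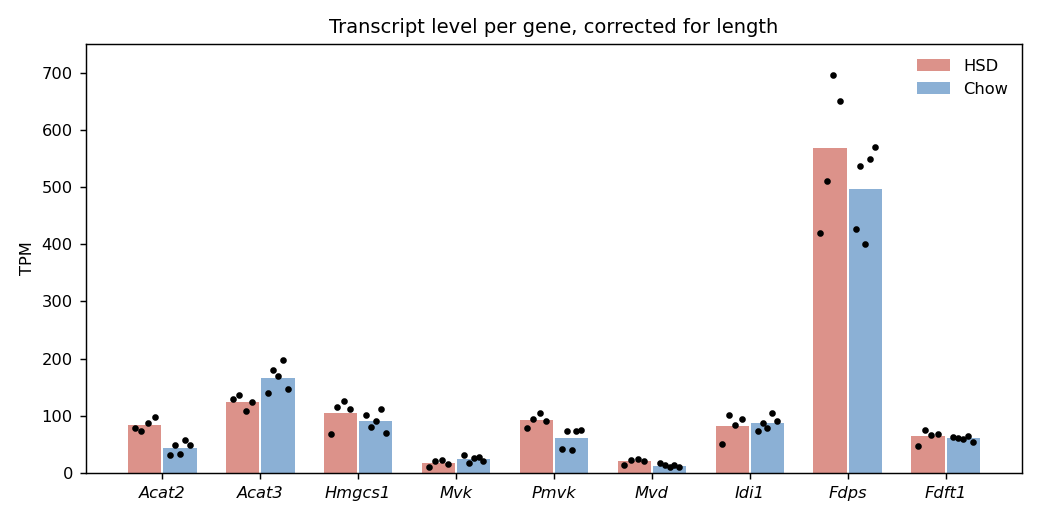
Mean TPM per gene in pathway order, HSD bars in red left of Chow bars in blue, with 1 black point per liver. Fdps is highest in both diets, at 569 TPM on HSD and 496 TPM on Chow, and Mvk and Mvd are lowest.

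HSD 1 was lower in most of the pathway than the other HSD livers. It was the lowest HSD liver for 7 of the 9 genes, all but Acat2 and Acat3, where 25.8% of all genes were lowest in this liver. It was the lowest of all 9 livers for 5 of them, Hmgcs1, Mvk, Idi1, Fdps and Fdft1. Against the mean of the other HSD livers, log2 CPM in HSD 1 differed by -0.96 for Mvk, -0.85 for Idi1, -0.82 for Hmgcs1, -0.77 for Mvd, -0.67 for Fdft1, -0.58 for Fdps and -0.34 for Pmvk, compared with -0.15 for Acat2 and 0.07 for Acat3. The 11 genes of sterol synthesis after squalene were all lowest in HSD 1 among the HSD livers, by -1.02 for Msmo1 to -0.23 for Ebp. Averaged over 8 members without Acat3, log2 CPM relative to each gene's mean was -0.44 in HSD 1 and 0.16 to 0.25 in the other HSD livers, against -0.21 to 0.11 in Chow livers. The clock gene Arntl was at 9.15 CPM in HSD 1, 4.20 to 4.23 CPM in the other HSD livers and 1.35 to 9.24 CPM in Chow livers; its part in the low levels was not tested. Of the Chow livers, Chow 3, at 9.24 CPM of Arntl, had the lowest mean of the members (-0.21), and Chow 1, at 4.40 CPM, the next highest Arntl, had the highest (0.11). Without HSD 1, Acat2 (log2 fold change 0.81, edgeR adjusted p = 0.0261) and Acat3 (-0.59, edgeR adjusted p = 0.032) still passed, and no other member did; 1.25% of all genes were then called higher and 1.22% lower.

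**Figure D5:**
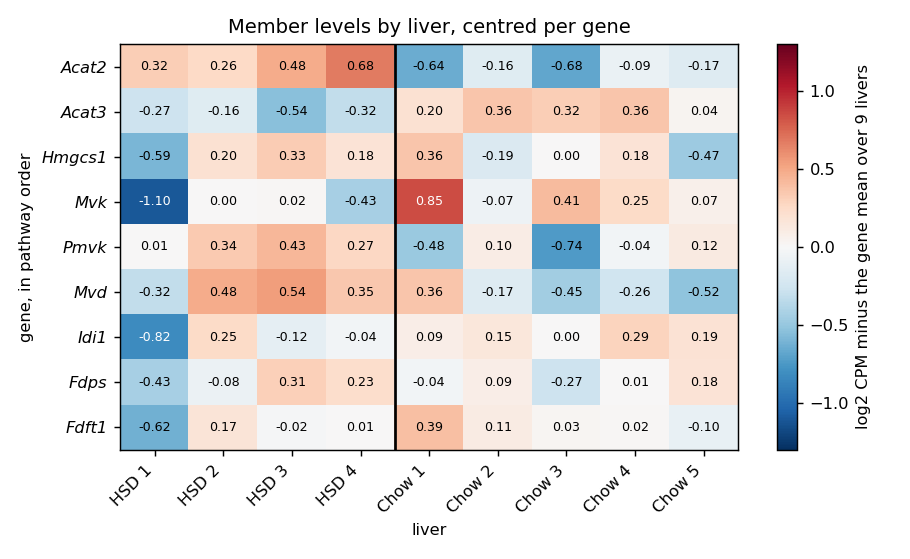
Log2 CPM minus each gene's mean over 9 livers, for the 9 genes (rows, pathway order) in 4 HSD livers and 5 Chow livers (columns, HSD left of the line), red above and blue below the mean. HSD 1 is blue from Hmgcs1 on except at Pmvk, reaching -1.10 for Mvk, while the rows of Acat2 and Acat3 change colour at the line between the diets.

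Promoter sequence was looked at because SREBP-2 works with NF-Y at such genes. RefSeq windows of 250 bases before to 50 bases after the start (GRCm38.p6) were matched for 6 of the 9 genes; Acat3, Fdps and Fdft1 had no entry. The CCAAT box (CCAAT, either strand), which NF-Y binds, was found in 5 of the 6, all but Acat2, and in 37.4% of all 32851 windows. The core CACCCCAC of the sterol regulatory element, on either strand, was found in Acat2 and Hmgcs1 and in 2.9% of all windows, and the same core with AT directly before it in 0 of the 6 and 0.091% of all. These matches are a description of letters and not of binding. The stretches before the start of Acat2 (chr17:12960748-12960975, minus strand), which was called higher, and of Hmgcs1 (chr13:119690101-119690350, plus strand), which was not, are shown with the core and CCAAT boxes in capitals.
Acat2: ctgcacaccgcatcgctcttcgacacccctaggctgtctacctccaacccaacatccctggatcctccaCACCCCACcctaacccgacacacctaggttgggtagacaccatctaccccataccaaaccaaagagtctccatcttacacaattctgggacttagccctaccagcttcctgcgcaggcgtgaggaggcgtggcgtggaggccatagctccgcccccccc
Hmgcs1: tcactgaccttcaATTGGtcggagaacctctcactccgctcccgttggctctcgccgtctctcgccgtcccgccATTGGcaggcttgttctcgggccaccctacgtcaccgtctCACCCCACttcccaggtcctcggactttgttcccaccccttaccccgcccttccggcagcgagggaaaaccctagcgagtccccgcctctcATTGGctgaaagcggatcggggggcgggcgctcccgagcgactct
The core begins at position -159 in Acat2 and -136 in Hmgcs1, counted back from the last base of each stretch, which ends just before the first transcribed base of the annotations used. Mvk shares its start region with Mmab, a gene of cobalamin metabolism that starts just upstream and runs the other way, and the stretch between them (chr5:114444061-114444268, plus strand) holds 5 CCAAT boxes, in capitals, and 0 copies of the core.
Mvk and Mmab: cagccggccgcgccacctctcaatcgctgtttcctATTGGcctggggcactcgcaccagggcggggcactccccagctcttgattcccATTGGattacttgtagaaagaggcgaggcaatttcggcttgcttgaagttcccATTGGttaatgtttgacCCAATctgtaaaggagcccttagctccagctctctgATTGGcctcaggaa
Mmab averaged 24.8 ± 3.06 CPM on HSD and 28.8 ± 5.06 CPM on Chow (SD, n = 4 and 5), a log2 fold change of -0.22 (edgeR adjusted p = 0.344), beside -0.66 for Mvk; the difference between the 2 genes was not tested.

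Genes around the pathway were counted in the same way. Of 11 genes of sterol synthesis after squalene, 0 were called in edgeR's test and the median log2 fold change was -0.02, with unadjusted p under 0.05 for 2 higher and 2 lower; DESeq2 called 1 lower, Ebp, a sterol isomerase (188.8 ± 14.9 CPM on HSD and 244.5 ± 33.0 CPM on Chow, SD, n = 4 and 5). Of 5 genes of ketone bodies and acetoacetyl-CoA, 0 were called by edgeR or DESeq2, 1 having an unadjusted p under 0.05. Of 9 genes of isoprenoid side branches, edgeR and DESeq2 called 1 lower, beside 3.23% of all genes by edgeR, and limma on log2(TPM + 1) called 0. This was Pdss1, a subunit of the enzyme that makes the coenzyme Q side chain. Pdss1 stood at 0.85, 0.69, 0.68 and 1.11 CPM in the HSD livers, against 1.42, 2.10, 1.54, 1.65 and 1.72 CPM in the Chow livers, all low levels, from 10 to 44 estimated counts per liver, that did not overlap (log2 fold change -0.99, SE 0.27, edgeR adjusted p = 0.0479).

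Of 7 genes that control SREBP, 1 was called higher by edgeR, beside 3.44% of all genes. This was Insig2, whose product holds SREBP with its escort SCAP in the endoplasmic reticulum. Insig2 stood at 226.3, 278.9, 263.6 and 242.4 CPM in the HSD livers, against 169.3, 123.0, 190.6, 102.9 and 108.7 CPM in the Chow livers. All HSD livers were above all Chow livers, as for 5.84% of all genes (log2 fold change 0.86, SE 0.17, edgeR adjusted p = 0.0143). Insig1, its relative, averaged 256.2 ± 57.1 CPM on HSD and 175.4 ± 36.0 CPM on Chow (SD, n = 4 and 5; log2 fold change 0.55, edgeR adjusted p = 0.0743) and was called by DESeq2 and limma only. Srebf2, which encodes SREBP-2, averaged 59.1 ± 7.34 CPM on HSD and 59.0 ± 14.8 CPM on Chow (SD, n = 4 and 5). Acly, the enzyme that supplies cytosolic acetyl-CoA from citrate, was at 1062, 549, 1500 and 1392 CPM in the HSD livers and 195, 583, 241, 707 and 601 CPM in the Chow livers. HSD 2 fell among the Chow livers, and Acly did not pass the test (log2 fold change 1.27, SE 0.38, edgeR adjusted p = 0.0688), though DESeq2 called it higher; the other 2 genes of acetyl-CoA supply were not called by either tool.

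The genes whose pattern over the 9 livers was most like the mean of the members, Acat3 left out, were ranked by the root mean square difference of centred log2 CPM among 12082 genes outside the members. These were Mettl14 (0.099), Nr3c2 (0.101), Tmem97 (0.103), Fbxw9 (0.104) and Tm7sf3 (0.114), where the median of all genes was 0.315. Among the members, Fdps (0.150), Fdft1 (0.175) and Hmgcs1 (0.191) lay closest to that mean, and Acat3 (0.416), Acat2 (0.440) and Mvk (0.455) farthest. These values describe 9 points that share their libraries, and genes that vary little also come out close.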

How the data were processed

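Per the labels and the study's methods, poly-A libraries of mouse liver were sequenced and quantified by kallisto (GRCm38). The authors deposited estimated counts per gene symbol, not scaled, and TPM values, scaled by the authors per library. Of the values, 34.1% were whole (within 1e-06), and 99.1% of those were even, so halved counts were tried. No sample was pooled, 0 columns lacked a sample, and 16 pairs of livers of the same diet differed beyond sampling noise. Estimated counts were rounded, filtered with filterByExpr (minimum count 10), TMM-scaled, and fitted with edgeR 4.0.16 (R 4.3.3), leaving 7 residual degrees of freedom. CPM are TMM-normalised, with a prior count of 2 in log2 CPM. Intervals of fold changes are 95% intervals built from the SE and a t distribution with 7 degrees of freedom. They are not part of edgeR's test and can disagree with its p values.

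Alternatives were DESeq2 1.42.0, limma 3.58.1 on log2 TPM, other scaling, no filter, a replicate block, the label series, a clock covariate, halved counts, each liver left out, and Acat2 and Acat3 summed. Named genes were all members, called genes of the other lists, the enzymes needed to place a member, and the 5 nearest in pattern. Members and lists were chosen with earlier results of these data known. Arntl, Dbp, Saa1, Serpina1a, Alas2, the globin genes, Lrat, Reln, Mmab, Tcp1, Ctsb and Gm43738 were picked outside the rule. Sequences are from GENCODE and RefSeq. Scripts were tested on simulated data. Some genes of the pathway are not reported here.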

Additional observations from a re-analysis of the deposited data

Results flagged for a closer look

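The mean of 8 members in HSD 1 lay -0.64 (centred log2 CPM) from the mean of the other HSD livers, at -0.44 against 0.16 to 0.25 in those livers. It was flagged because its gap to the nearest HSD liver took most of the range of that group. Of 24 sets of values examined, each from 1 diet, 1 was flagged (4.17%). Chance flags about 1 in 20 of independent sets. These sets overlap, since the mean of 8 members is built from members also examined singly, so that rate is only a rough guide.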

How the results depend on the processing

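Acat2 stayed past the test under 22 of 23 alternatives, all but the first label series alone, and Acat3 under 19 of 23, all but that series and the 3 limma settings; both kept their direction in all 23. Both counts include the second label series alone, which has 1 Chow liver. Each of the 23 alternatives started from kallisto's division of shared reads between Acat2 and Acat3, so none of them can test that division. With members counted as in the report, 1 was higher and 1 lower. Within label series, the first alone gave 0 higher and 0 lower. The second series alone has 1 Chow liver, assumed to vary like the HSD livers. For that reason the members called there are not listed, for Acat2 and Acat3 as for the others. Log2 fold changes in that series ran from -0.48 for Acat3 to 0.96 for Mvd, with 0.75 for Acat2 and 0.72 for Hmgcs1. The clock covariate gave 2 higher. With Acat2 and Acat3 summed, 0 were higher and 0 lower, since their joint row took their place in the count and did not pass. limma gave 0 lower on log2(TPM + 1), with and without the filter, and on log2(TPM + 0.1). Leaving out each liver gave 1 to 2 higher, 2 being without Chow 1, and 1 to 1 lower. The share of Acat2 differed by 16.6 percentage points in the first label series alone (exact permutation p = 0.1333, the smallest possible there), and by 18.2 to 21.5 points when each liver was left out. The p value of the share in that series was likewise bound to be the smallest, since Acat2 and Acat3 each separated the diets fully. Acat2 plus Acat3 did not pass under any of 23 alternatives.

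The sign of genes that had not passed turned as follows. Hmgcs1 gave -0.058 with the replicate block and -0.25 in the first label series alone, and -0.037 (without Chow 5) to 0.233 (without HSD 1) when each liver was left out, also turning without HSD 3. Fdps gave -0.10 with the label series as covariate, -0.20 in the first series alone, and -0.069 (without HSD 3) to 0.161 (without HSD 1) when each liver was left out, also turning without HSD 4 and without Chow 3. Fdft1 gave 0.058 under each of the 3 limma settings where the median of all genes was 0.063 to 0.155, so that it lay below the median gene in each, and 0.085 in the second series alone, with its single Chow liver. The cause of the other turns was not tested.

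Replicate numbers are shared between the diets by different mice, and same-numbered livers correlated at 0.05, 0.07, -0.06 and 0.04, so they were not taken as pairs. With the replicate block, Acat2 gave 0.82 and Acat3 -0.64, with 1 member higher and 1 lower. Of all genes in that fit, 1.79% were called higher and 1.77% lower.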
